A study of Rattus norvegicus with 8 samples.

Results

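The 7 genes of the rat platelet-derived growth factor (PDGF) system were followed in RNA from remodeled outflow veins: the ligand genes Pdgfa, Pdgfb, Pdgfc and Pdgfd, the receptor genes Pdgfra and Pdgfrb, and the receptor-like gene Pdgfrl. They were chosen by name out of 32623 genes listed in the count files, and all 7 were among the 11682 genes tested. In Sprague Dawley rats of both sexes, an arteriovenous fistula (AVF) was made by joining the epigastric vein to the side of the femoral artery, and the vein was sequenced 21 days later, 1 rat per library. All rats carried a periadventitial scaffold, a sheet of polymer nanofibers wrapped around the vein at surgery. In the BAPN group (n = 4; 3 females, 1 male) the scaffold released beta-aminopropionitrile, which blocks lysyl oxidases, the enzymes that crosslink matrix proteins. In the Vehicle group (n = 4; 2 females, 2 males) the scaffold was empty. The comparison therefore asks how local lysyl oxidase inhibition went with PDGF gene expression in the AVF wall. The age of the animals is not given in the sources used here, and neither an unoperated vein nor an AVF without a scaffold was analysed here.

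PDGF ligands are secreted dimers that drive the proliferation and migration of mesenchymal cells, and they are long-studied growth signals for the smooth muscle cells and fibroblasts of neointima in injured vessels and vein grafts. The A and B chains are cleaved by furin-type convertases inside the cell, whereas the C and D chains leave the cell in a latent form and are opened by plasminogen activators and related proteases. PDGF receptor alpha, typical of fibroblasts, binds the A, B and C chains, and PDGF receptor beta, typical of smooth muscle cells and pericytes, binds the B and D chains.

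Total counts were 45039451 to 52241007 in the BAPN libraries and 19548203 to 22442050 in the Vehicle libraries. The shallowest BAPN library thus held 2.01 times the counts of the deepest Vehicle library, so that depth and treatment cannot be told apart by design. Of the PDGF genes, Pdgfc had the fewest counts, where the Poisson counting error of a single library was at most 6.26% of its value, and Pdgfrb the most, at 5798 to 18676 per library. Levels are given as CPM, counts per 1000000 counts of the TMM-scaled library, and they are compared between rats, since without transcript lengths a CPM rank between genes, used here only to pick which uncalled genes to name, is no rank of expression. Smooth muscle, endothelial and fibroblast markers were all measured in the tissue, with Myh11 reaching 1540.1 CPM, Cdh5 336 CPM and Dcn 2490.1 CPM in the rat with the most.

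Promoter windows were searched for 4 motifs tied to flow and growth signalling. The RefSeq sequences upstream of Pdgfa, Pdgfb and Pdgfra are shown because, unlike for Pdgfc and Pdgfd, enough bases of the window lay outside the annotated gene. They come from the GRCr8 build (Pdgfa chr12:20759116-20759365, plus strand; Pdgfb chr7:113438344-113438593, minus strand; Pdgfra chr14:33408605-33408766, minus strand), run 5′ to 3′ along the gene and stop before the annotated gene. Capitals mark the matched letters. The promoter table used here held 5 of the 7 genes, without Pdgfrb and Pdgfrl.
Pdgfa: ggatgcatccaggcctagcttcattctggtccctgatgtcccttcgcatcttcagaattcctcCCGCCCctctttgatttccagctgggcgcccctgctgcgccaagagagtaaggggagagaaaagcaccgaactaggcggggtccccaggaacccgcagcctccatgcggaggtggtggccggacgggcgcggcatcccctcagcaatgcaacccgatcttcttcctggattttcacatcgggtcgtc
Pdgfb: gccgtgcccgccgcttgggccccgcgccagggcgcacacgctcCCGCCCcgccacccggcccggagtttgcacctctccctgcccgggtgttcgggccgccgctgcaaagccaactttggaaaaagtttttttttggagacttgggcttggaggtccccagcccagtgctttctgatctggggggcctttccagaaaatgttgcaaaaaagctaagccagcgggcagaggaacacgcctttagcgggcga
Pdgfra: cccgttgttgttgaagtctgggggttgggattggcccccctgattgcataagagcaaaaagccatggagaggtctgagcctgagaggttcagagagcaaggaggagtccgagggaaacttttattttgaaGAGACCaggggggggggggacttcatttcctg
The motifs were searched on both strands of windows from 250 bases before to 50 after each start. The letters GAGACC, named a shear stress response element and known from the human PDGF-B promoter, were in the Pdgfra window, at position -120 from the start site, and in 16.5% of all 33469 rat promoters. They were not in the rat Pdgfb window. The GC box GGGCGG, present in 33.1% of promoters, was in the windows of Pdgfa, Pdgfb and Pdgfd, each time on the opposite strand, and reads CCGCCC in the lines above. The AP-1 letters TGANTCA, present in 7.33% of promoters, were in the Pdgfra window at bases not shown. The Egr1 letters GCGGGGGCG, present in 2.73% of promoters, were in none of the 5 windows. A match is a description of letters and says nothing about binding in these veins.

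No PDGF gene passed the test between BAPN and Vehicle veins. With edgeR's quasi-likelihood test and Benjamini-Hochberg adjustment over all tested genes, 0 of 7 were called at an adjusted p below 0.05, against 16.8% of all tested genes. At an unadjusted p below 0.05, 2 of 7 passed, Pdgfra and Pdgfrb, against 35.8% of all genes. DESeq2 called the same 2 of 7 and 27.4% of all genes. The BAPN and Vehicle rats overlapped for each of the 7 genes, whereas 24.7% of all tested genes had no overlap. The point estimates of all 7 were below 0, as were those of 5654 of 11682 tested genes (48.4%). The median log2 fold change was -0.64 over the 7 genes and 0.02 over all tested genes.

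**Figure D1:**
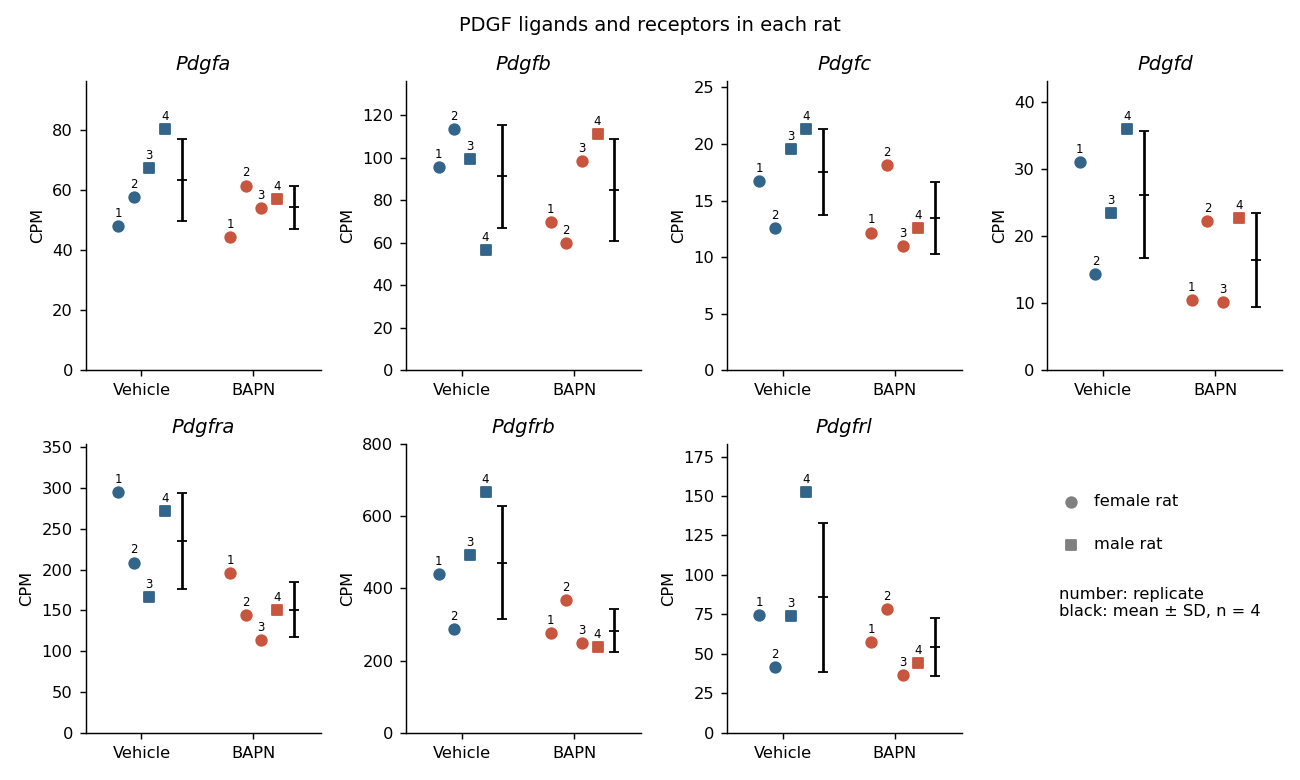
Each panel plots 1 PDGF gene, with CPM on the vertical axis from 0 and the group on the horizontal axis. Points are rats (circles female, squares male, numbers the replicate), and black bars are the mean ± SD of 4 rats. The groups overlap in every panel, and the highest point is Vehicle 4 for Pdgfa, Pdgfc, Pdgfd, Pdgfrb and Pdgfrl.

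Among the ligands, Pdgfa encodes the A chain, which signals through PDGF receptor alpha. Pdgfa (ENSRNOG00000001312) measured 44.4, 61.5, 54.0 and 57.0 CPM in BAPN rats 1 to 4, against 48.1, 57.7, 67.3 and 80.2 CPM in Vehicle rats 1 to 4. Only the male Vehicle rats, 3 and 4, stood above all BAPN rats, and BAPN 1 stood below all Vehicle rats. The means were 54.2 ± 7.24 CPM for BAPN and 63.3 ± 13.7 CPM for Vehicle (SD, n = 4 each), a log2 fold change of -0.22 (SE 0.17, 95% interval -0.59 to 0.17, edgeR adjusted p = 0.359). An exact two-sided permutation test of log2 CPM over the 8 rats gave p = 0.314, where the 70 arrangements allow no p below 0.0286.

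Pdgfb encodes the B chain, the ligand of both receptors, with which endothelial cells recruit mural cells to growing vessels. Pdgfb (ENSRNOG00000017197) measured 69.9, 59.7, 98.5 and 111 CPM in BAPN rats 1 to 4, against 95.6, 113, 99.4 and 56.8 CPM in Vehicle rats 1 to 4. Both groups spanned nearly the same range, and the lowest value of all was that of Vehicle 4. The means were 84.8 ± 24.0 CPM for BAPN and 91.3 ± 24.3 CPM for Vehicle, and the log2 fold change of -0.11 (SE 0.25, 95% interval -0.67 to 0.47, edgeR adjusted p = 0.779, exact permutation p = 0.857) was the nearest to 0 of the 7. Its sign turned when BAPN 2 (0.020) or Vehicle 2 (0.014) was left out.

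Pdgfc encodes a latent ligand of receptor alpha that is activated outside the cell. Pdgfc (ENSRNOG00000010695) measured 12.2, 18.1, 11.0 and 12.6 CPM in BAPN rats 1 to 4, against 16.7, 12.6, 19.5 and 21.3 CPM in Vehicle rats 1 to 4. BAPN 2 lay among the higher Vehicle rats, and Vehicle 2 lay at the level of BAPN 4. The means were 13.5 ± 3.18 and 17.5 ± 3.79 CPM, and the log2 fold change was -0.38 (SE 0.22, 95% interval -0.86 to 0.10, edgeR adjusted p = 0.23, exact permutation p = 0.171).

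Pdgfd encodes the latent ligand of receptor beta. Pdgfd (ENSRNOG00000029148) measured 10.5, 22.3, 10.2 and 22.7 CPM in BAPN rats 1 to 4, against 31.0, 14.3, 23.4 and 35.9 CPM in Vehicle rats 1 to 4. The BAPN rats fell into a low pair, 1 and 3, and a pair, 2 and 4, just under Vehicle 3. Means of 16.4 ± 7.0 and 26.2 ± 9.44 CPM gave the lowest estimate among the ligands, a log2 fold change of -0.67 (SE 0.36, 95% interval -1.50 to 0.13, edgeR adjusted p = 0.202, exact permutation p = 0.143), and the interval still held 0.

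Pdgfra, the receptor gene of many tissue fibroblasts and their progenitors, was at a mean of 151 ± 34.1 CPM in BAPN and 235 ± 58.8 CPM in Vehicle veins, 35.8% lower. Pdgfra (ENSRNOG00000002244) measured 196, 144, 113 and 151 CPM in BAPN rats 1 to 4, against 295, 209, 166 and 271 CPM in Vehicle rats 1 to 4. All but BAPN 1 were below every Vehicle rat, and all but Vehicle 3 were above every BAPN rat. The log2 fold change was -0.64 (SE 0.22, 95% interval -1.13 to -0.15, unadjusted p = 0.0159, adjusted p = 0.0699 by edgeR). The exact permutation test gave p = 0.0571. The call depended on the tool, since DESeq2 gave a log2 fold change of -0.65 with an adjusted p of 0.0253.

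Pdgfrb, the receptor gene of smooth muscle cells and pericytes, had the largest point estimate of the 7. Pdgfrb (ENSRNOG00000018461) measured 277, 368, 248 and 237 CPM in BAPN rats 1 to 4, against 439, 287, 493 and 667 CPM in Vehicle rats 1 to 4. Vehicle 2 sat among the BAPN rats, just above BAPN 1, and the other Vehicle rats were above every BAPN rat. The means were 283 ± 59.5 and 471 ± 157 CPM, 40.0% lower in BAPN, and the log2 fold change was -0.74 (SE 0.26, 95% interval -1.27 to -0.12, unadjusted p = 0.0164, adjusted p = 0.0711 by edgeR). The exact permutation test gave p = 0.0571. DESeq2 called Pdgfrb, with an adjusted p of 0.0199, and edgeR called it once Vehicle 2 was left out, with a log2 fold change of -0.91 and an adjusted p of 0.0241.

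Pdgfrl encodes a protein that resembles the extracellular part of the receptors and has no kinase. Pdgfrl (ENSRNOG00000010832) measured 57.4, 78.5, 36.5 and 44.4 CPM in BAPN rats 1 to 4, against 74.6, 41.9, 74.2 and 153 CPM in Vehicle rats 1 to 4. BAPN 2 was above all Vehicle rats but Vehicle 4, which stood far above the rest. The means were 54.2 ± 18.3 and 85.8 ± 47.1 CPM, and the log2 fold change was -0.66 (SE 0.37, 95% interval -1.39 to 0.25, edgeR adjusted p = 0.228, exact permutation p = 0.286). Without Vehicle 4 the log2 fold change was -0.23, so that 1 rat carried most of the Pdgfrl estimate.

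**Figure D2:**
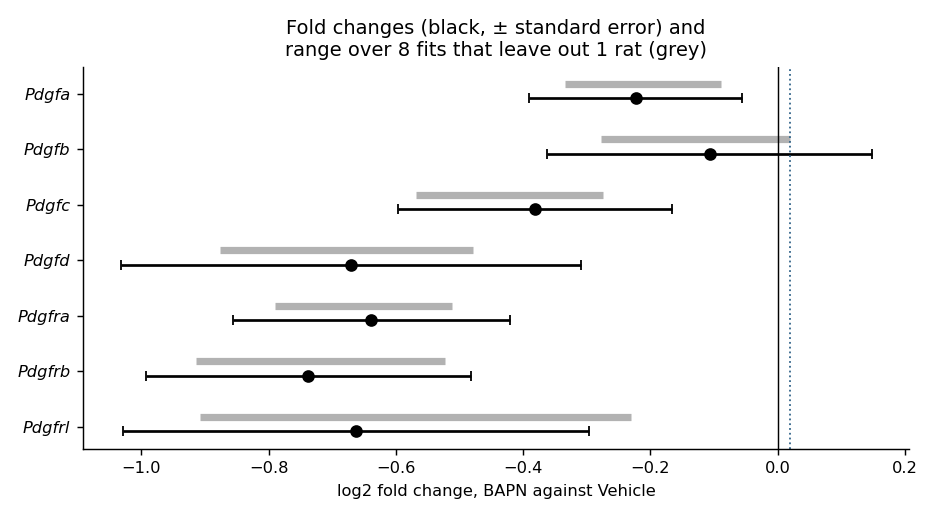
Log2 fold changes of BAPN against Vehicle on the horizontal axis, with the 7 genes on the vertical axis. Black points and bars are the estimates ± SE, grey bars the lowest to highest estimate over 8 fits that each left out 1 rat, and the dotted line the median of all tested genes, 0.02. The grey bar crosses 0 for Pdgfb alone and is longest for Pdgfrl, from -0.91 to -0.23.

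Sex was unevenly spread, and the difference in Pdgfrb was smaller among females. The female rats had a mean Pdgfrb of 298 CPM in BAPN (n = 3) and 363 CPM in Vehicle veins (n = 2), and the males had 237 CPM in BAPN (n = 1) and 580.0 CPM in Vehicle veins (n = 2). In females alone the log2 fold changes were -0.28 for Pdgfrb (edgeR adjusted p = 0.507), -0.74 for Pdgfra (adjusted p = 0.157) and -0.020 for Pdgfrl (adjusted p = 0.979). Among the ligands they were 0.012 for Pdgfa, -0.46 for Pdgfb, -0.092 for Pdgfc and -0.66 for Pdgfd (adjusted p of 0.251 to 0.974), so that the Pdgfb estimate was farther from 0 than in all rats and that of Pdgfc nearer. With sex as a covariate, edgeR gave log2 fold changes of -0.66 for Pdgfra (adjusted p = 0.106), -0.63 for Pdgfrb (adjusted p = 0.169) and -0.47 for Pdgfrl (adjusted p = 0.462). A treatment-by-sex term, added after seeing the data, had edgeR adjusted p-values of 0.427 to 0.924 for the 7 genes, with a single BAPN male to estimate it.

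The rats did not rank alike for all members. Vehicle 4 had the highest level of 5 genes, Pdgfa, Pdgfc, Pdgfd, Pdgfrb and Pdgfrl, and the lowest level of Pdgfb. Vehicle 2 showed the opposite pattern, with the highest Pdgfb of all 8 rats and the lowest Vehicle values of Pdgfc, Pdgfd, Pdgfrb and Pdgfrl. The same contrast appeared within the BAPN group, where BAPN 2 had the lowest Pdgfb and the highest Pdgfa, Pdgfc, Pdgfrb and Pdgfrl. These 3 rats were named for that contrast, and it did not hold throughout. In BAPN 1 Pdgfb, Pdgfc, Pdgfrb and Pdgfrl were all below their means, and in Vehicle 1 and Vehicle 3 all were above.

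**Figure D3:**
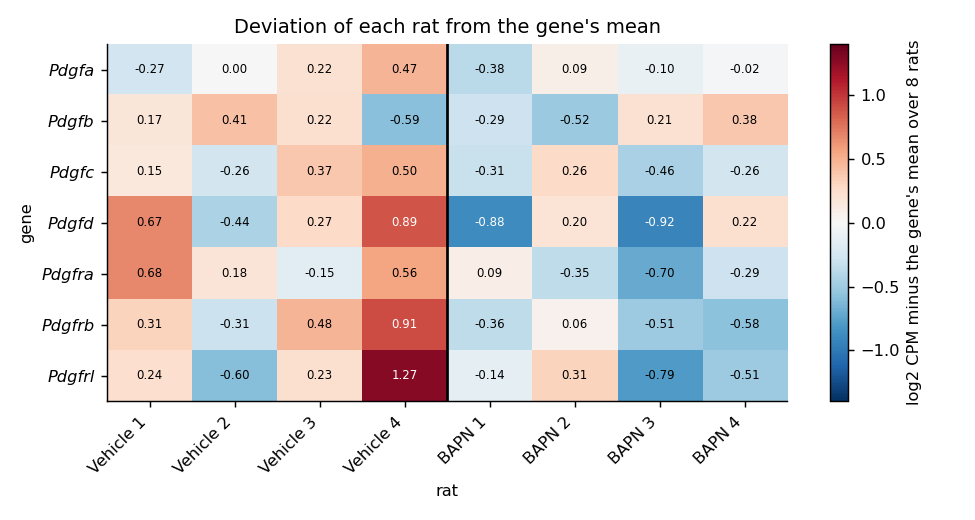
Rows are the 7 PDGF genes, columns the 8 rats, and the printed values and colors are log2 CPM minus the gene's mean over all rats (red above, blue below). Vehicle 4 reads 1.27 for Pdgfrl and 0.91 for Pdgfrb but -0.59 for Pdgfb, and BAPN 3 reads -0.92 for Pdgfd and -0.70 for Pdgfra but 0.21 for Pdgfb.

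Likeness between genes was measured as the root mean square difference of their log2 CPM over the 8 libraries, after each gene's own mean was subtracted, so that smaller values are more alike. The nearest pairs of PDGF genes were Pdgfc with Pdgfrb (0.213), Pdgfrb with Pdgfrl (0.243) and Pdgfa with Pdgfc (0.246). The measure grows with a gene's own spread about its mean, which is its distance to a gene with no variation and was 0.251 for Pdgfa, 0.338 for Pdgfc, 0.375 for Pdgfb, 0.438 for Pdgfra, 0.497 for Pdgfrb, 0.621 for Pdgfrl and 0.635 for Pdgfd. Pdgfa was thus hardly nearer to Pdgfc than to a flat gene. The farthest were Pdgfb with Pdgfrl (0.933), Pdgfb with Pdgfd (0.815) and Pdgfb with its receptor gene Pdgfrb (0.76). The receptor kinase genes Pdgfra and Pdgfrb were 0.415 apart. These points share their libraries, and group differences enter the measure.

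The search for nearest genes left out tested genes with placeholder names, such as those starting with LOC. Among the other tested genes, those nearest to Pdgfra were Lrp1 (0.087), Fryl (0.108) and the transcription factor gene Maf (0.11). Lrp1 encodes a scavenger receptor that is also a co-receptor of PDGF signalling. Those nearest to Pdgfrb were Dbn1 (0.0615), which encodes the actin-binding protein drebrin, Twsg1 (0.0618), a modulator of bone morphogenetic proteins, and Rhbdf1 (0.0808). Pdgfrl was nearest to Lrig3 (0.117), Olfml2b (0.122) and Armh4 (0.131). The genes nearest to Pdgfa were B3gnt2 (0.12), Oaf (0.125) and Tsc22d2 (0.13). Pdgfb was nearest to Dhrs3 (0.095), Stac2 (0.108) and Tnfsf12 (0.113), the last a TNF family ligand. Phtf2 (0.0735), Sgce (0.0811) and Prkci (0.0941) were nearest to Pdgfc. Nearest to Pdgfd, which also had the largest own spread, were the axon guidance ligand gene Slit2 (0.244), Cdc14b (0.25) and Dixdc1 (0.277).

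Ratios within a library do not depend on its scaling. The log2 ratio of Pdgfra to Pdgfrb was -0.50, -1.35, -1.13 and -0.66 in BAPN rats 1 to 4, against -0.57, -0.46, -1.57 and -1.30 in Vehicle rats 1 to 4. Each group held rats from both ends, and the group means differed by 0.07. The ratio of Pdgfd to Pdgfrb, ligand to receptor, had group means that differed by less than 0.01. For Pdgfb to Pdgfrb, the log2 ratio was lowest in Vehicle 4 (-3.55) and highest in BAPN 4 (-1.10), a span of 2.46 that was the widest of the 8 ratios of PDGF genes computed, and the group means differed by 0.59. Pdgfrl to Pdgfrb, added after seeing the data, spanned 0.65, the narrowest of the 8. None of the 8 ratios separated the groups.

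Some markers of the cells that carry these receptors were lower in BAPN veins, and in bulk tissue fewer cells of a type and less RNA per cell cannot be told apart. Of the pericyte and mural markers, 4 of 8 fell and none rose (median log2 fold change -0.78, and 50% called against 16.8% of all tested genes), and their summed level was 433 to 655 CPM in BAPN and 790.3 to 1624 CPM in Vehicle rats, without overlap. Of the smooth muscle markers, 6 of 10 fell and none rose (median -1.29; 60.0%), with sums of 1722 to 4504 CPM against 3493 to 6459 CPM. Of the fibroblast markers, 2 of 10 fell and none rose (median -0.57; 20.0%), with sums of 23889 to 37249 CPM against 29019 to 95992 CPM. The highest fibroblast, mural and smooth muscle sums were all those of Vehicle 4. Of 9 endothelial markers tested, 3 fell and none rose (median -0.62; 33.3%), and the sums were 523 to 702 CPM against 882 to 1631 CPM, without overlap. Of 8 macrophage markers, 1 rose and none fell (median 0.41), with sums of 2908 to 3733 CPM against 1687 to 3401 CPM. Of 6 T cell markers, 2 rose and none fell (median 1.35), Cd2 by 1.38 and Cd8a by 1.33 on the log2 scale (edgeR adjusted p = 0.0138 and 0.0281), and 1 was called without BAPN 1, 2 or 3 or Vehicle 4. Their sums were 343 to 441 CPM against 287 to 492 CPM. These sums were mostly Cd4, with means of 334 CPM in BAPN and 350 CPM in Vehicle veins (log2 fold change -0.07, edgeR adjusted p = 0.811). Of 5 adipocyte markers tested, 1 fell (median -1.43), with sums of 2519 to 7616 CPM against 942 to 5360 CPM, and none was called when any rat but Vehicle 4 was left out (2 without Vehicle 4). Most of the adipocyte sum was Lpl (0.30, edgeR adjusted p = 0.715) and Fabp4 (0.70, adjusted p = 0.269), whose estimates lay above 0, unlike the median. Leaving out 1 rat, a check added after seeing the data, gave 3 (without BAPN 3, BAPN 4 or Vehicle 3) to 9 called smooth muscle markers, 3 to 4 mural markers, 0 (without BAPN 3 or Vehicle 1; 1 without BAPN 4, Vehicle 3 or Vehicle 4) to 5 (without Vehicle 2) fibroblast markers, 1 (without BAPN 1, BAPN 2, BAPN 4 or Vehicle 1) to 5 (without Vehicle 2) endothelial markers and 0 (without Vehicle 1) to 2 (without BAPN 4 or Vehicle 2) macrophage markers. DESeq2, with 27.4% of all tested genes called, called 7 smooth muscle, 4 mural, 5 fibroblast, 5 endothelial, 2 macrophage, 3 T cell and 3 adipocyte markers. The part of these cell types in the PDGF values was not tested.

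The log2 ratio of Pdgfrb to the summed mural markers was -1.12 to -0.83 in BAPN and -1.46 to -1.19 in Vehicle rats, 0.38 higher in BAPN and without overlap. With Notch3 left out of the sum, the ratio was -0.75 to -0.51 in BAPN and -0.84 to -0.60 in Vehicle rats. It was then 0.09 higher in BAPN with overlap, and leaving out any other mural marker was not tried. The ratio of Pdgfrb to the summed fibroblast markers differed by 0.04 between group means, and that of Pdgfra to the fibroblast sum by 0.11, both with overlap. That sum was mostly 2 collagen genes. Col1a1 had means of 13486.3 CPM in BAPN and 27009.2 CPM in Vehicle veins, and Col3a1 of 13971.5 and 24930.9 CPM. Pdgfrb to the smooth muscle sum was 0.37 higher in BAPN on average, with overlap. Pdgfb to the endothelial sum was 0.78 higher in BAPN on average, with overlap. These ratios to marker sums were chosen after the values were seen and carry no test. Platelets store PDGF, and the 7 platelet and megakaryocyte markers ranged widely, their highest values in any rat running from 0.197 CPM for Ppbp and 0.702 CPM for Gp9 to 17.2 CPM for Itga2b and 119 CPM for Pf4. Of the 3 of them tested, 1 fell (Itga2b, log2 fold change -1.22, edgeR adjusted p = 0.0401), a share of 33.3% against 16.8% of all tested genes. The others were at 0.63 for Pf4 (adjusted p = 0.114) and 0.54 for Treml1 (adjusted p = 0.567), so that the list's median was 0.54, and the list held 1 call without Vehicle 3 and 0 without any other rat. The summed level of the 7 markers was 69.8 to 129 CPM in BAPN and 45.4 to 93.0 CPM in Vehicle rats. The part of platelets in the PDGF values was not tested.

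**Figure D4:**
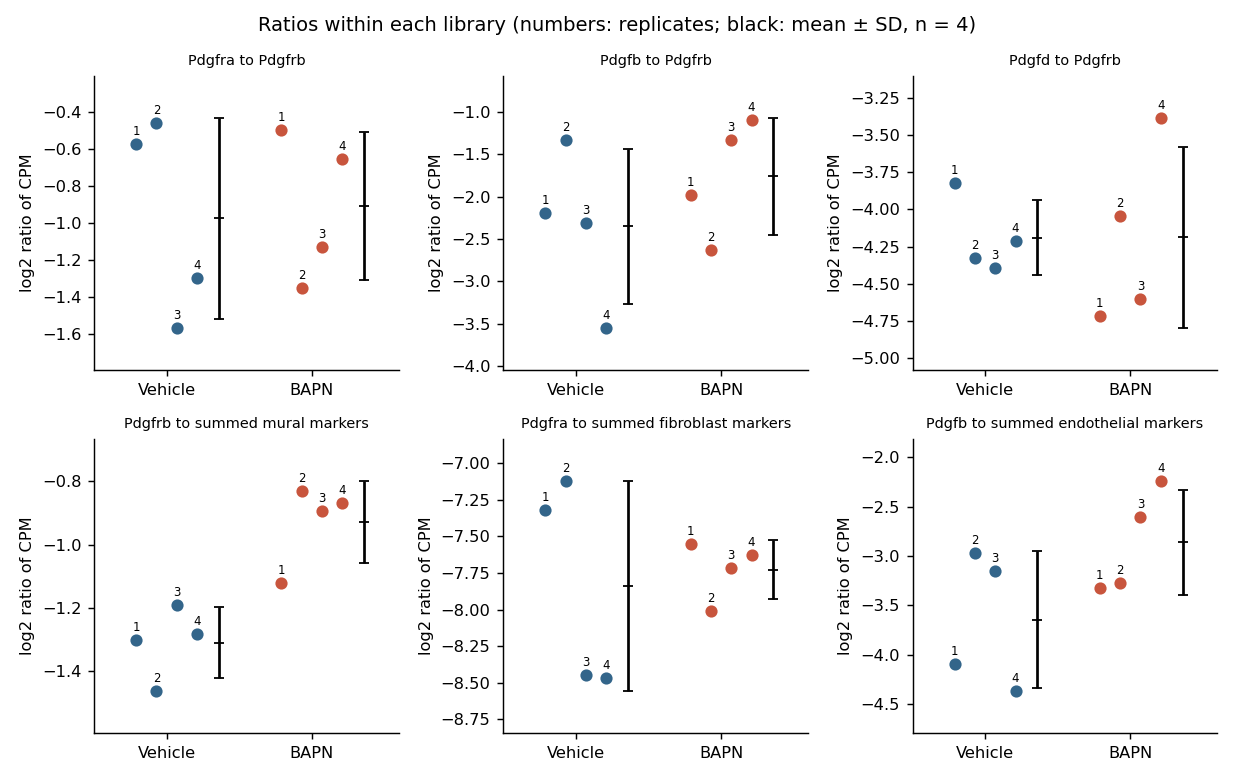
Log2 ratios of CPM (vertical axes, each with its own scale) per rat by group, where numbers are replicates and black bars the mean ± SD of 4 rats. The groups overlap for the ratios between PDGF genes in the upper row, and in the lower row they separate only for Pdgfrb to the summed mural markers, with BAPN higher by 0.38, a separation that was not seen once Notch3 was left out of the sum.

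Upstream of the receptors, none of the 7 ligand-processing proteases was called by edgeR, against 16.8% of all tested genes (median log2 fold change -0.07). Those with the highest CPM, unadjusted for length, were Plat, the plasminogen activator that opens PDGF-C (0.30, SE 0.14, adjusted p = 0.165), and the convertase Furin (-0.21, SE 0.11, adjusted p = 0.194). DESeq2 called 1 of the 7, against 27.4% of all tested genes. Of the 7 ligand-binding proteins and co-receptors tested, 1 rose and none fell (median -0.40), and this share of 14.3% was near that of all genes by edgeR. It was Pdap1, which encodes a PDGF-associated phosphoprotein, at 108 ± 8.56 CPM in BAPN and 84.4 ± 3.51 CPM in Vehicle veins (log2 fold change 0.35, SE 0.10, edgeR adjusted p = 0.0373), a call lost without BAPN 1, 3 or 4 or Vehicle 1, 3 or 4 (adjusted p up to 0.095) and with sex as a covariate (0.0704). Sparc, a matricellular protein that binds PDGF-B, was at a log2 fold change of -0.40 (SE 0.37, adjusted p = 0.441; -0.013 without Vehicle 4) and Lrp1 at -0.53 (SE 0.24, adjusted p = 0.145).

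Of the 20 receptor adaptors and docked enzymes tested, 1 rose and 3 fell by edgeR (median log2 fold change -0.39), and this share of 20.0% was near the 16.8% of all tested genes. The genes of a pair of PI3 kinase regulatory subunits fell, Pik3r2 from 84.0 ± 6.13 to 59.8 ± 5.95 CPM (-0.49, SE 0.11, adjusted p = 0.0204) and Pik3r1 from 82.7 ± 17.3 to 50.9 ± 11.3 CPM (-0.70, SE 0.19, adjusted p = 0.037). The paired adaptor genes Nck1 and Nck2 moved apart, Nck2 falling from 25.3 ± 3.62 to 16.5 ± 2.38 CPM (-0.62, SE 0.15, adjusted p = 0.0293) and Nck1 rising from 60.7 ± 4.73 to 80.7 ± 10.1 CPM (0.41, SE 0.12, adjusted p = 0.0409). The count was unstable, with 0 called without Vehicle 1, 1 without BAPN 4, Vehicle 3 or Vehicle 4, 2 without BAPN 2 or BAPN 3 and 8 without Vehicle 2, and DESeq2 also called 8, against 27.4% of all tested genes. Pik3r2 kept its call in 7 of the 8 fits that left out a rat, and Pik3r1, Nck1 and Nck2 in 2 each. With sex as a covariate, Nck1 (adjusted p = 0.0629), Nck2 (0.0678) and Pik3r1 (0.071) were not called. Shc1 (-0.05, SE 0.12, adjusted p = 0.779) and Grb10 (-0.89, SE 0.29, adjusted p = 0.0658) were the uncalled genes of the list with the highest CPM. DESeq2 called Grb10 (adjusted p = 0.0168), as did edgeR without Vehicle 2 (0.0331), and its log2 fold change was -0.59 without Vehicle 4 and -0.39 in females alone.

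None of the 19 RAS, MAPK, AKT and STAT effector genes was called by edgeR (median log2 fold change -0.03), against 16.8% of all tested genes, and DESeq2 called 1, against 27.4%. Those with the highest CPM were Rac1 (-0.08, SE 0.13, edgeR adjusted p = 0.685) and Stat3 (0.09, SE 0.16, adjusted p = 0.698).

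Of 17 negative regulators of receptor signalling, 3 rose and 3 fell (median log2 fold change 0.06), 35.3% called against 16.8% of all tested genes, a difference that was not tested. Spry1, a Sprouty inhibitor of the RAS pathway, was at 23.3 ± 2.15 CPM in BAPN and 44.2 ± 2.06 CPM in Vehicle veins (-0.92, SE 0.10, edgeR adjusted p = 0.00366). Of the ubiquitin ligases that tag active PDGF receptors for degradation, Cbl fell from 30.0 ± 6.88 to 12.0 ± 4.82 CPM (-1.32, SE 0.31, adjusted p = 0.0248), whereas its paralog Cblb rose from 70.8 ± 14.0 to 128 ± 26.7 CPM (0.86, SE 0.19, adjusted p = 0.0206). Ptpn2, a tyrosine phosphatase that acts on PDGF receptor beta, rose from 21.4 ± 3.65 to 39.2 ± 5.76 CPM (0.87, SE 0.16, adjusted p = 0.0127). BAPN and Vehicle rats did not overlap for any of these 4, nor for 11 of the 17 genes of the list in all, against 24.7% of all tested genes. The remaining calls, named after their values were seen, were Spry4 (-0.88, adjusted p = 0.0318) and Ptpn12 (0.39, adjusted p = 0.0381). When 1 rat was left out, between 2 (without Vehicle 1) and 5 genes of the list were called, with 3 without BAPN 3 or BAPN 4. Spry1 and Ptpn2 were called in each of those 8 fits. Cbl lost its call without BAPN 2, BAPN 4 or Vehicle 1 (adjusted p up to 0.0706) and Cblb without BAPN 3 or Vehicle 1 (up to 0.0579).

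The immediate early and growth response genes, many of them induced within minutes by PDGF and other stimuli, included 4 of 20 that fell and none that rose (median log2 fold change -0.50), a share of 20.0% near the 16.8% of all tested genes. Egr1 was at 81.6 ± 22.2 CPM in BAPN and 245 ± 155 CPM in Vehicle veins (-1.59, SE 0.36, edgeR adjusted p = 0.0277), and its relative Egr3 at 10.7 ± 2.38 and 25.0 ± 5.79 CPM (-1.22, SE 0.22, adjusted p = 0.0131). Nr4a1, an orphan nuclear receptor gene, was at 24.1 ± 5.03 and 58.9 ± 19.5 CPM (-1.29, SE 0.24, adjusted p = 0.0148). Elk1, a partner of serum response factor that is activated by phosphorylation, was at 30.5 ± 1.79 and 44.6 ± 8.86 CPM (-0.55, SE 0.14, adjusted p = 0.0333). Egr3 and Nr4a1 were called whichever rat was left out. Egr1 was not called without any 1 of the BAPN rats (adjusted p up to 0.0631), nor was Elk1, which was also lost without Vehicle 1 or Vehicle 4 (up to 0.0858), and the count was 2 without any 1 BAPN rat. With sex as a covariate, Egr1 (adjusted p = 0.0677) and Elk1 (0.0639) were not called, and without Vehicle 3 the log2 fold change of Egr1 was -1.05. Jund (-0.58, SE 0.22, adjusted p = 0.104) and Jun (-0.44, SE 0.24, adjusted p = 0.229) did not pass, and without Vehicle 3 their log2 fold changes were -0.35 and -0.13. DESeq2 called 7 of the list, against 27.4% of all tested genes, Jund among them (adjusted p = 0.0455).

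Among 15 genes of the related receptor kinases and their ligands, 2 ligand genes fell and none rose (median log2 fold change -0.09), a share of 13.3% against 16.8% of all tested genes. Il34, a ligand of the CSF1 receptor, was at 21.6 ± 3.10 CPM in BAPN and 35.7 ± 4.80 CPM in Vehicle veins (-0.73, SE 0.14, edgeR adjusted p = 0.0166) and was called in each fit that left out a rat. Kitlg, the KIT ligand gene, was at 30.0 ± 7.19 and 59.1 ± 23.2 CPM (-0.98, SE 0.28, adjusted p = 0.0439), and its call was lost with sex as a covariate (adjusted p = 0.121) and when any rat other than Vehicle 2 was left out (up to 0.111), which left 1 called gene in the list. Csf1r (0.17, SE 0.19, adjusted p = 0.526) and Csf1 (-0.09, SE 0.22, adjusted p = 0.767) did not pass. Of 19 cell division genes, 1 rose and none fell (median 0.25), a share of 5.26%. It was Pcna, the replication clamp, at 77.7 ± 5.56 and 49.3 ± 7.79 CPM (0.66, SE 0.13, adjusted p = 0.0157), called whichever rat was left out. Mki67 (0.34, SE 0.18, adjusted p = 0.196) and Ccnd1 (-0.24, SE 0.18, adjusted p = 0.382) did not pass, and the count became 2 without Vehicle 2 or Vehicle 4 and 3 with DESeq2, which called 27.4% of all tested genes.

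**Figure D5:**
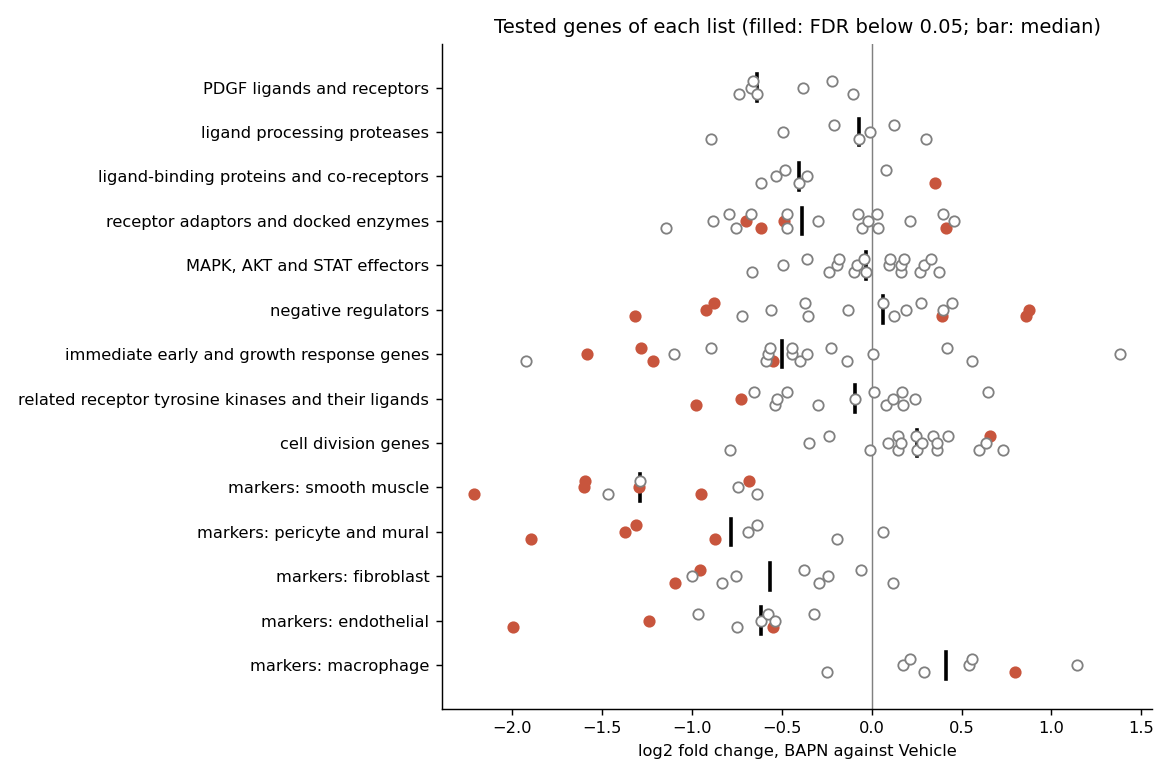
Each point is a tested gene, with its log2 fold change of BAPN against Vehicle on the horizontal axis and its list on the vertical axis. Filled points passed an adjusted p of 0.05, and black bars are list medians. The 7 PDGF genes are all open and left of 0 with a median of -0.64, the negative regulators hold filled points on both sides, and the filled points of the immediate early genes and of the smooth muscle and mural markers are all left of 0.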

How the data were processed

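The authors deposited raw counts per gene, 1 file for each of the 8 rats, from rRNA-depleted stranded libraries of total RNA. The submitters' processing notes name bcl2fastq 2.17, Trim Galore and STAR. The counter, its strand setting and the genome build are not given in the sources used here. The 7 genes and all gene lists were chosen with earlier results of these data known.

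Genes under a base mean of 100 (mean count after DESeq2 size factors) were left out, as the study did. The study tested with a DESeq plug-in, and here the rest were tested with edgeR 4.0.16 (R 4.3.3, TMM, quasi-likelihood, no covariate) and Benjamini-Hochberg adjustment, called below 0.05. SEs and intervals came from limma-voom 3.58.1. Log2 CPM used a prior count of 2. DESeq2 1.42.0, other scalings and filters, sex, thinning and leaving out rats were alternatives. Besides the 7 genes, the text names up to 4 called genes by adjusted p and the 2 uncalled genes of highest CPM per pathway list, and the 3 nearest genes per PDGF gene. On simulated counts for this comparison (11682 genes, 200 of them with a log2 change of 1.5), 172 were recovered by edgeR with 9 false calls and 188 by DESeq2 with 59. The estimates of the 7 PDGF genes were all smaller than 1.5, so these recoveries say nothing about changes of their size.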

Additional observations from a re-analysis of the deposited data

How the results depend on the processing

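Of 133 log2 fold changes of the 7 genes under 19 alternatives, 124 kept their direction and side of the threshold. Pdgfra was called by DESeq2 on the tested genes (-0.65) and on all genes (-0.63), and Pdgfrb likewise (-0.75 and -0.73), so 2 of the 7 genes were called. Pdgfa turned to 0.012 in females alone. No pairing of rats by replicate number was seen, although so few rats cannot settle whether there was any. Correlations of deviations between same-numbered rats were 0.0944, -0.265, 0.269 and -0.14, and BAPN 3 was the only BAPN rat nearest to its own number. With the replicate number as a block, 1 of the 7 was called, Pdgfra (-0.63, adjusted p = 0.0495), and 556 genes in all. That block ended 9 calls of named pathway genes, those of Pdap1, Pik3r1, Pik3r2, Nck1, Nck2, Elk1, Il34, Kitlg and Pcna (adjusted p of 0.0525 to 0.146). Without a filter on low counts, Pdap1, Pik3r1, Nck1, Elk1 and Kitlg were not called (0.0502 to 0.0601), nor was Pdap1 scaled by total counts (0.0627). Over the whole table, DESeq2 called 3202 or 3089 genes, a sex covariate left 930 and females alone 89, against 1957. Leaving out each rat gave 397 to 2215 genes, and 0 to 1 of the 7 genes. The ranges were -0.33 to -0.09 for Pdgfa, -0.28 to 0.020 for Pdgfb, -0.57 to -0.27 for Pdgfc, -0.88 to -0.48 for Pdgfd, -0.79 to -0.51 for Pdgfra, -0.91 to -0.52 for Pdgfrb and -0.91 to -0.23 for Pdgfrl. Among uncalled list genes, the sign turned for Sparc (0.26) and Csf1r (-0.047) in females alone, and the ranges with a rat left out held 0 for Shc1 (-0.12 to 0.016), Stat3 (-0.0074 to 0.17) and Csf1 (-0.24 to 0.035). In females alone none of the called pathway genes named by rule was called, although some fold changes were as large (Spry1 -0.92, Egr3 -1.47, Cbl -1.51). The causes were not tested. With 4 rats a group, intervals remain wide. Depth differed between the groups except in the edgeR fit on counts thinned to equal library totals. That fit called 0 of the 7 genes and 1870 genes in all. It gave log2 fold changes of -0.62 for Pdgfra (adjusted p = 0.0813) and -0.74 for Pdgfrb (adjusted p = 0.0731).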
